A study of Mus musculus with 7 samples.

Results

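Genes that astrocytes raise when they become reactive, namely Gfap, Vim, Nes, Serpina3n, C4b, Cd44, Osmr, Timp1, Steap4 and Lcn2, were followed in optic nerves of mice in which Fasn, the gene for fatty acid synthase, is deleted in oligodendrocyte (OL) lineage cells. The 10 genes were found by name among the 22880 genes of the table, and all 10 were among the 13866 genes with enough signal to be tested. Optic nerves of 14-day-old mice (P14) came from 4 controls, which carried the Fasn lox/lox alleles without Cre, and 3 mutants, which carried olig2cre with Fasn lox/lox, so that the floxed alleles were shared by both genotypes. The floxed line had been backcrossed for at least 3 generations to C57Bl/6, the Cre line was kept on C57Bl/6, and both nerves of 1 mouse formed 1 sample. Cre is driven by the Olig2 promoter, which is active in the OL lineage, and each value is a mean over all cells of the nerve with its meninges and vessels.

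Astrocytes answer injury, demyelination and inflammation with a shared program called reactivity, in which they enlarge their intermediate filament skeleton and secrete protease inhibitors, complement proteins and iron-binding proteins. Part of this program is switched on by cytokines of the interleukin-6 family, which act through the receptor chain gp130, the kinases JAK1 and JAK2 and the transcription factor STAT3. In white matter tracts such as the optic nerve, astrocytes lie between axon bundles and contact vessels and nodes of Ranvier, and they contain GFAP also at rest.

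None of the 10 genes passed the threshold in either direction at P14 in the limma-trend test of mutant against control nerves. All 10 had a higher fitted level in mutant than in control nerves, with log2 fold changes from 0.05 for Nes to 0.69 for Timp1 and a median of 0.30, although Vim and Nes turned slightly negative after centring of the samples. Gfap, C4b and Osmr were higher in each of the 3 mutants than in each of the 4 controls, as 12.9% of all genes tested were. Values are FPKM (fragments per kilobase of transcript, scaled to library size), and differences are log2 fold changes of FPKM + 0.5, fitted over all genes with limma-trend and called at a Benjamini-Hochberg adjusted p below 0.05. By this test 0 of the 10 were called, where 2.62% of all genes tested were (1.26% higher and 1.36% lower in mutants). At an unadjusted p below 0.05 there were 5, Gfap, C4b, Osmr, Timp1 and Steap4, all higher, beside 15.9% of all genes that were higher at that level. On recovered reads, edgeR called 0 of the 10 (2.89% of all genes), and DESeq2 called 3, namely Gfap, C4b and Timp1 (12.4% of all genes, 6.76% higher). When samples of the same replicate number were paired, 1 gene, C4b, passed (8.36% of all genes, 6.42% higher). No mutant shares the number of control 4, so the paired fold changes rest on controls 1 to 3 and mutants 1 to 3 only.

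Totals of recovered reads ran from 31311977 to 43458816 in the controls and from 27453644 to 35746867 in the mutants. Fasn, the deleted gene, stood at 210, 169, 211 and 228 FPKM in controls 1 to 4 and at 69.3, 50.5 and 49.0 in mutants 1 to 3, a log2 fold change of -1.86 (SE 0.138, adjusted p = 0.00312, limma-trend). Some samples stood apart in genes of other tissues: mutant 1 in meningeal fibroblast genes (summed FPKM of 10 genes 5623, against 2171 to 3329 in the other samples), mutant 2 in skeletal muscle genes (69.6 over 8 genes, against 2.14 to 5.08) and control 2 in erythrocyte genes (12730 over 5 genes, against 2851 to 5595). RNA of the Y-linked genes Ddx3y and Eif2s3y was present in control 3, control 4 and mutant 3.

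**Figure D1:**
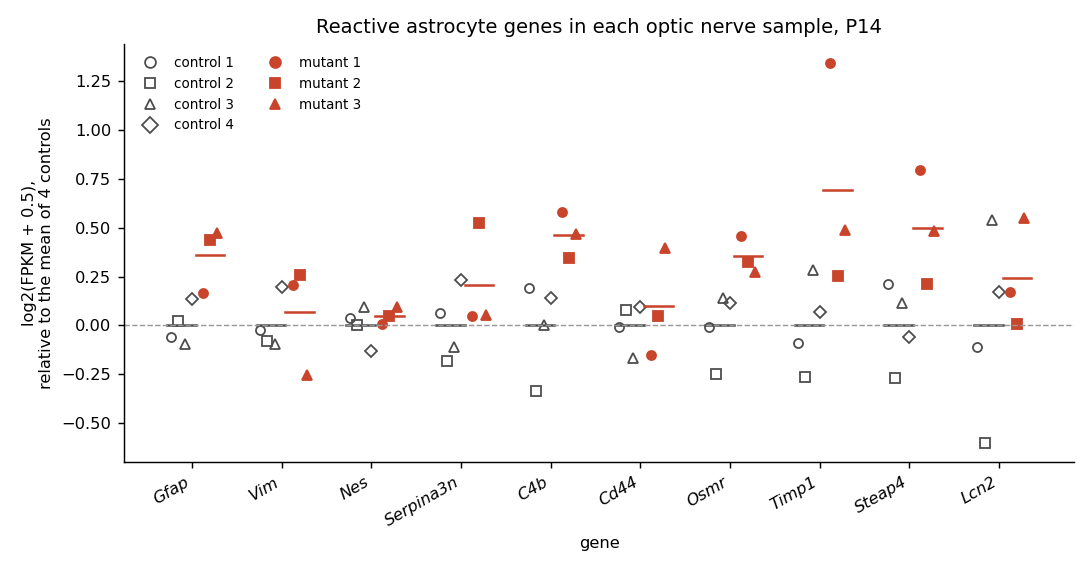
Level of each of the 10 genes in each sample, as log2(FPKM + 0.5) relative to the mean of the 4 controls (y axis), with controls as open grey and mutants as filled red symbols and a bar at each group mean. The 3 mutants lie above the 4 controls for Gfap, C4b and Osmr, mutant 1 is far from the rest for Timp1 (1.34), and control 2 is lowest for Lcn2 (-0.60).

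The genes differed widely in abundance per length. Averaged over the 7 samples, Gfap stood at 1707 FPKM and Vim at 444, followed by C4b at 138 and Serpina3n at 121.5, whose ranges overlapped in the controls. Nes (9.28), Lcn2 (8.07), Osmr (7.18), Timp1 (6.16) and Cd44 (5.36) formed a group of low genes with overlapping ranges among neighbours, and Steap4 was lowest at 0.809 FPKM with 51 to 159 reads per sample. Among controls, Nes (coefficient of variation 6.85%) and Gfap (7.26%) varied least, and Lcn2 (34.3%) and Steap4 (26.2%) most.

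Gfap (chr11:102887336-102897200, minus strand, GRCm38), which encodes the main intermediate filament protein of astrocytes, was the most abundant of the 10. It stood at 1454, 1540, 1419 and 1667 FPKM in controls 1 to 4 and at 1704, 2055 and 2108 in mutants 1 to 3. The groups did not overlap, although mutant 1 was close to control 4. Gfap was 1.29 times higher on average, a log2 fold change of 0.36 (SE 0.105, 95% confidence interval 0.12 to 0.60, limma-trend adjusted p = 0.0953). With paired replicate numbers it was 0.41 (adjusted p = 0.0748), and DESeq2 alone passed the threshold (adjusted p = 0.0344, edgeR 0.160). With limma-trend it was 0.28 after centring of the samples (adjusted p = 0.231) and 0.28 for normalized counts (adjusted p = 0.284).

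The filament proteins that reactive and immature astrocytes add to GFAP, vimentin and nestin, showed smaller differences. Vim (chr2:13573927-13582826, plus strand), which endothelial cells and fibroblasts also express, stood at 425, 407.5, 404 and 495 FPKM in controls and at 498, 515 and 362 in mutants. Mutant 3 was the lowest of the 7 samples and the other mutants were the highest, and the log2 fold change of 0.07 (SE 0.130, adjusted p = 0.778) turned to -0.01 when samples were centred on their medians. It was -0.02 without mutant 2 and 0.23 without mutant 3. Nes (chr3:87971078-87980451, plus strand), at 9.38, 9.14, 9.77 and 8.29 in controls and 9.18, 9.45 and 9.77 in mutants, was nearly level across all samples, with a log2 fold change of 0.05 (SE 0.0794, 95% confidence interval -0.13 to 0.23, adjusted p = 0.743) that became -0.03 after centring. Of 12 intermediate filament genes tested, these 3 included, 0 were called with limma-trend, 1 with edgeR and 2 with DESeq2, and 3 had an unadjusted p below 0.05. The list median was 0.11, and 0.02 without mutant 3, where the median over all genes was 0.05. The nearest to the threshold was Synm, which encodes synemin, a filament protein that assembles with vimentin and GFAP. Its FPKM was 7.19, 6.49, 6.90 and 7.09 in controls and 9.44, 8.66 and 8.66 in mutants (log2 fold change 0.34, SE 0.0777, adjusted p = 0.0559), with no overlap.

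C4b and Serpina3n, the most abundant secreted products among the 10, differed in how regularly the mutants exceeded the controls. C4b (chr17:34728380-34743882, minus strand) encodes complement component 4, which is cleaved by C1s in the classical pathway, and it stood at 135, 93.6, 118.5 and 130.2 FPKM in controls and at 177, 150.4 and 164 in mutants. All mutants lay above all controls, and control 2 was the lowest. The difference was 0.46 on the log2 scale (SE 0.123, 95% confidence interval 0.19 to 0.74, adjusted p = 0.0773). It was 0.35 without control 2. With paired replicate numbers it was 0.51 (SE 0.0832, adjusted p = 0.0251) and passed, and DESeq2 also called it (adjusted p = 0.0125, edgeR 0.0753). The near-identical gene C4a shares 11.5% of the 125-base windows of the longest coding C4b transcript in GENCODE. It was not found by name among the genes of the table, so reads of both may be counted in C4b. The other 9 genes shared no such window with another gene.

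Serpina3n (chr12:104406729-104414329, plus strand), which encodes a secreted inhibitor of serine proteases, stood at 117.9, 99.5, 104.5 and 132.5 FPKM in controls and at 116.7, 163 and 117.0 in mutants. Only mutant 2 was above the controls, and mutants 1 and 3 lay within them. The log2 fold change of 0.21 (SE 0.137, adjusted p = 0.380) was 0.05 without mutant 2. Mutant 2 was also the sample with skeletal muscle RNA, where Acta1 stood at 15.07 FPKM against 0.0711 to 0.712 elsewhere and Ckm at 7.62 against 0 to 0.257. The part of this tissue in the Serpina3n level was not tested. Of the 10 Serpina3 genes with a row of their own, 3 were at 0 in every sample, and Serpina3g was the only other one tested. It stood at 0.945, 0.794, 1.27 and 0.537 FPKM in controls and 1.44, 1.73 and 2.19 in mutants (log2 fold change 0.74, SE 0.197, adjusted p = 0.0785), and it passed with paired replicate numbers (adjusted p = 0.0495).

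The complement genes, C4b among them, had a median log2 fold change of 0.38 over 14 tested, and 13 of 14 were positive. Without mutant 1, the sample highest in meningeal genes, the median was 0.25, and the part of meningeal RNA in it was not tested. With limma-trend 0 were called (edgeR 0, DESeq2 4), 6 had an unadjusted p below 0.05, and 5 had mutants above all controls. With paired replicate numbers 5 of 14 passed, all higher in mutants. Among them were C4b, the protease gene C1s1 (log2 fold change 0.52) and the regulators Serping1 (0.59) and Cd55 (0.71). Their fitted adjusted p without pairing was 0.0773 for C4b, 0.101 for C1s1, 0.0894 for Serping1 and 0.0815 for Cd55. The subunits of C1q, which microglia make, differed less, with 0.09 for C1qa, 0.11 for C1qb and 0.09 for C1qc.

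Osmr and Cd44 encode receptors of the cell surface, and which cells held their RNA cannot be read from whole nerves. Osmr (chr15:6813577-6874969, minus strand), the chain that joins gp130 to bind oncostatin M, stood at 6.31, 5.27, 7.03 and 6.91 FPKM in controls and at 8.91, 8.08 and 7.77 in mutants. The groups did not overlap, and mutant 3 and control 3 were the nearest. Osmr differed by 0.35 on the log2 scale (SE 0.111, 95% confidence interval 0.10 to 0.60, adjusted p = 0.106), and no alternative test brought it below the threshold (DESeq2 0.0575, edgeR 0.102, paired 0.0793). Without control 2 its log2 fold change was 0.27.

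The partner of Osmr did pass. Il6st, which encodes gp130, rose from 119.8, 99.4, 104 and 119.7 FPKM in controls to 154, 147.6 and 155 in mutants, a log2 fold change of 0.46 (SE 0.0794, adjusted p = 0.0293, limma-trend). The call was lost without control 1, 2 or 3 or mutant 1 or 3 (adjusted p up to 0.110), with log2 fold changes of 0.41 to 0.50 throughout. Every other gene of a list that is given as called by limma-trend likewise kept its direction and lost its call without control 3 and without mutant 3. Il6st was the only one of 10 genes for gp130 receptors and JAK-STAT proteins to be called with limma-trend, and the list median was 0.17. Jak1 (0.23, adjusted p = 0.132), Il6ra (0.31, 0.135) and Stat3 (0.19, 0.138) had mutants above all controls without passing. Of 8 cytokine genes of this family, Osm, Lif, Il6 and Il11 were below 0.5 FPKM in every sample, and of the 4 tested 0 were called with limma-trend, edgeR or DESeq2 and 1 had an unadjusted p below 0.05. Cntf, the most abundant, had 5.36 to 8.39 FPKM in controls and 7.74 to 8.96 in mutants (log2 fold change 0.31, adjusted p = 0.199). Genes that STAT3 induces, or that feed back on it, had a median of -0.02 over 8 tested, which single samples moved between -0.14 (without mutant 1) and 0.29 (without mutant 3). Of these 0 were called with limma-trend, edgeR or DESeq2 and 2 had an unadjusted p below 0.05, and with paired replicate numbers Irf1 passed (adjusted p = 0.0435). Socs3, a feedback inhibitor of JAK kinases, stood at 2.75, 2.40, 1.97 and 2.62 FPKM in controls and 3.83, 2.67 and 2.18 in mutants (log2 fold change 0.19, adjusted p = 0.535).

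Cd44 (chr2:102811141-102901665, minus strand), the receptor for hyaluronan and osteopontin, stood at 5.11, 5.45, 4.53 and 5.53 FPKM in controls and at 4.59, 5.34 and 6.92 in mutants. Only mutant 3 exceeded the controls. A log2 fold change of 0.10 (SE 0.136, adjusted p = 0.692) became -0.05 without mutant 3, 0.04 without control 3 and 0.22 without mutant 1. Of 9 genes for CD44 ligands, hyaluronan enzymes and the linker proteins of CD44, Vcan fell, from 68.0, 62.4, 67.0 and 64.3 FPKM to 38.3, 45.5 and 50.5 (log2 fold change -0.55, SE 0.0908, adjusted p = 0.0265). Vcan encodes versican, a hyaluronan-binding proteoglycan that OL progenitors also make. Spp1, which encodes osteopontin, had the largest difference of this list, 0.78 (SE 0.192, adjusted p = 0.0656), with 37.5 to 53.3 FPKM in controls and 89.9, 53.0 and 91.2 in mutants. Spp1, Ezr and Hyal1 were called higher beside Vcan lower with paired replicate numbers.

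The promoters of the genes were searched for the letters of a STAT element, because Osmr signals through STAT3. Elements of 2 other factors, AP-1 and NF-kB, were searched as well. RefSeq windows of 300 bases (250 before to 50 after the start of the gene, GRCm38.p6) were matched for 9 of the 10 genes. The STAT element TTCNNNGAA, a palindrome read the same on both strands, occurred in 2 of the 9 windows and in 8.30% of all 32851 windows. The AP-1 element TGANTCA, searched on both strands, occurred in 1 of 9, in Osmr, and in 7.81% of all. An NF-kB element, also searched on both strands, occurred in 0 of 9 and in 0.411% of all. The matches are in capitals, 5′ to 3′ on the strand of the gene. The Steap4 element begins 116 bases before the start. The Gfap element begins 2 bases before the start and so spans it, and the Osmr element begins at base 4, counted with the start as base 1. The start is that of the RefSeq window, which for Steap4 and Osmr differs from the outer end of the gene in the table.
Steap4, chr5:7960330-7960390, plus strand: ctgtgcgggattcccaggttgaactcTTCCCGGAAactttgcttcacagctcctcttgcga
Gfap, chr11:102897181-102897228, minus strand: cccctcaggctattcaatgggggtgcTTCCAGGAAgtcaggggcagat
Osmr, chr15:6874294-6874336, minus strand: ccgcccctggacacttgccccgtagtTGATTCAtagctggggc
These are matches of letters only, and no binding was measured.

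Timp1, Steap4 and Lcn2 are genes of low abundance whose products act on proteases and iron. Timp1 (chrX:20870166-20874735, plus strand), which encodes a secreted inhibitor of matrix metalloproteinases, stood at 4.28, 3.74, 5.69 and 4.84 FPKM in controls and at 12.4, 5.55 and 6.62 in mutants. Mutant 1 stood far above the rest, and mutant 2 lay just below control 3. The difference of 0.69 on the log2 scale (SE 0.243, 95% confidence interval 0.14 to 1.24, adjusted p = 0.135) was 0.37 without mutant 1. It was called by DESeq2 (adjusted p = 0.0468) but not by edgeR (0.117) or with paired replicate numbers (0.0877). Timp1 lies within Syn1, a neuronal gene on the other strand of the X chromosome, and whether the counting used the strand is not given in the sources used here. Syn1 stood at 5.81, 5.79, 6.93 and 6.41 FPKM in controls and 5.58, 5.14 and 7.96 in mutants, and the part of Syn1 reads in Timp1 was not tested.

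Steap4 (chr5:7960457-7982213, plus strand), which encodes a membrane reductase for iron and copper, stood at 0.775, 0.412, 0.693 and 0.557 FPKM in controls and at 1.41, 0.775 and 1.04 in mutants. Mutant 1 was again the highest, and mutant 2 was level with control 1. Steap4 differed by 0.50 on the log2 scale (SE 0.181, 95% confidence interval 0.09 to 0.91, adjusted p = 0.142). Of the 4 Steap genes 0 were called with limma-trend, edgeR or DESeq2 and Steap4 alone had an unadjusted p below 0.05. The log2 fold change was 0.43 for Steap3 (adjusted p = 0.231), -0.06 for Steap2 and -0.16 for Steap1.

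Mutant 1, in which Timp1 and Steap4 were highest, was also the sample highest in meningeal fibroblast genes. Of 10 such genes, 9 had positive fold changes, with a median of 0.59, and none was at 0 in any sample. Their summed FPKM ran from 2171 to 2988 in controls and was 5623, 2893 and 3329 in mutants 1 to 3. Without mutant 1 the list median was 0.30. Of the 10, 0 were called with limma-trend or edgeR, 4 with DESeq2 and 6 with paired replicate numbers, and 5 had an unadjusted p below 0.05. C4b was also highest in mutant 1, and its log2 fold change was 0.41 without that sample. The part of meningeal RNA in Timp1, Steap4 and C4b was not tested.

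**Figure D2:**
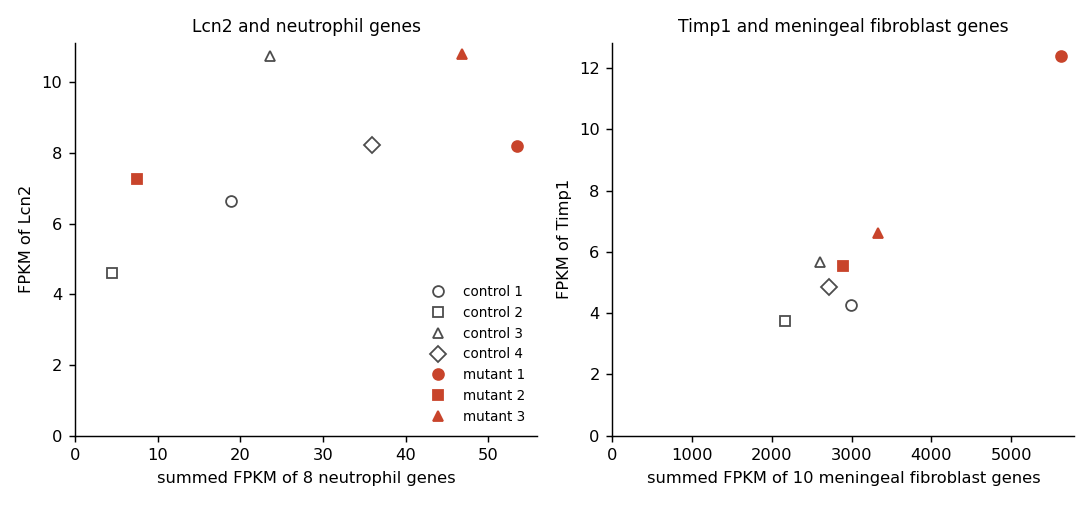
Left, FPKM of Lcn2 (y axis) against the summed FPKM of 8 neutrophil genes (x axis) in each sample. Right, FPKM of Timp1 against the summed FPKM of 10 meningeal fibroblast genes. Open grey symbols are controls and filled red symbols mutants. Control 2 and mutant 2 are lowest in neutrophil genes (4.43 and 7.45), and mutant 1 is highest in meningeal genes (5623) and in Timp1 (12.4).

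Lcn2 (chr2:32384633-32388252, minus strand) encodes lipocalin 2, which binds iron carried by siderophores and is also stored in neutrophil granules. It stood at 6.65, 4.60, 10.7 and 8.22 FPKM in controls and at 8.20, 7.28 and 10.8 in mutants, within the range of the controls but for mutant 3, which was just above control 3. Its log2 fold change of 0.24 had a wide 95% confidence interval, from -0.31 to 0.80 (SE 0.245, adjusted p = 0.579). It was 0.04 without control 2, 0.09 without mutant 3 and 0.42 without control 3. Neutrophil genes varied over the same samples. Their summed FPKM over 8 genes was 18.9, 4.43, 23.6 and 35.9 in controls and 53.5, 7.45 and 46.9 in mutants, and 6 of 7 tested had positive fold changes. Their median of 0.56 rested on single samples, with 0.085 without control 2, 0.14 without mutant 1, 0.25 without mutant 3 and 1.37 without mutant 2. With limma-trend, edgeR or DESeq2 0 of the 7 were called and 0 had an unadjusted p below 0.05, whereas 4 passed, all higher in mutants, with paired replicate numbers. Retnlg was at 0 in control 2, and S100a8 stood at 1.04 FPKM there and at 1.90 in mutant 2, against 3.71 to 11.0 in the other samples. Lcn2 was lowest in control 2, and the part of neutrophil RNA in its level was not tested. Of the genes for lipocalin 2 partners, Slc22a17, a lipocalin receptor that OLs also express, fell from 161.5, 157, 167 and 188 to 139.6, 126.1 and 124.7 FPKM (log2 fold change -0.37, SE 0.0766, adjusted p = 0.0454), and passed no longer with paired replicate numbers (0.0504).

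Among 10 genes for metalloproteinases and their tissue inhibitors, Timp1 included, 0 were called with limma-trend or edgeR and 4 with DESeq2, 6 had an unadjusted p below 0.05, and the median was 0.26. With paired replicate numbers 3 passed, all higher in mutants. They were Timp2 (0.31), Timp3 (0.46) and Mmp14 (0.55), and for Timp3 and Mmp14 mutant 1 was again the highest, at 331 and 127.7 FPKM.

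**Figure D3:**
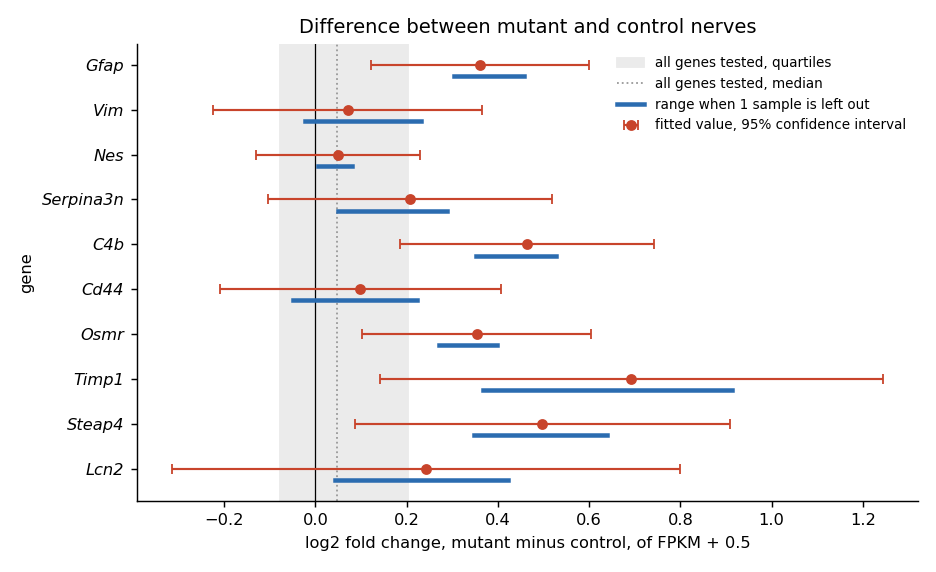
Log2 fold change of each gene, mutant minus control (x axis), as a red point with its 95% confidence interval, and the range of the fitted value when 1 sample is left out as a blue bar. The grey band marks the quartiles over all 13866 genes (-0.08 to 0.20) and the dotted line their median (0.05). The intervals of Gfap, C4b, Osmr, Timp1 and Steap4 lie above 0.

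Sample by sample, the mean of the 10 genes relative to the control mean was 0.36, 0.25 and 0.30 on the log2 scale in mutants 1 to 3 and 0.02, -0.19, 0.07 and 0.10 in controls 1 to 4. The genes that made up the excess differed between mutants. Mutant 1 exceeded all controls in 6 genes, mutant 2 in 5 and mutant 3 in 8. Counted likewise against the other controls, control 1 exceeded them in 2 genes, control 2 in 0 and controls 3 and 4 in 4 each. The share over all genes was not counted. Timp1, Steap4, C4b and Osmr were highest in mutant 1, Serpina3n and Vim in mutant 2, and Gfap, Cd44 and Lcn2 in mutant 3, which was level with control 3 for Nes. A positive fold change, which all 10 genes had, was found in 60.1% of all genes, and after centring of the samples the median was 0.22 for the 10 genes and -0.03 for all genes, with Vim and Nes then negative. Among samples without Y-linked RNA (controls 1 and 2, mutants 1 and 2) and among those with it (controls 3 and 4, mutant 3), Gfap, C4b, Osmr, Timp1 and Lcn2 were each higher in every mutant than in every control, as 19.6% of all genes tested were in both subsets. With presence of Y-linked RNA as a second term, 0 of the 10 genes were called, as were 1.46% of all genes, and the adjusted p of C4b was 0.0971 and that of Gfap 0.118.

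Genes that mark astrocytes whether or not they are reactive also had higher fitted levels in the mutants. All 16 astrocyte identity genes had positive fold changes (60.1% of all genes) with a median of 0.49. Mutants lay above all controls for 11 of them, as for 12.9% of all genes tested. With limma-trend Aldh1l1 (0.55, adjusted p = 0.0214), Slc1a2 (0.67, 0.0437), Gja1 (0.64, 0.0214) and Aldoc (0.63, 0.0199) rose. With paired replicate numbers 12 of 16 did (6.42% of all genes). Called with edgeR were 4 (2.89% of all genes) and with DESeq2 11 (12.4%). Their summed FPKM ran from 3123 to 3478 in controls and from 4055 to 4825 in mutants, and none was at 0 in any sample. Summed FPKM of 10 OL genes was lower in every mutant (42220 to 54120) than in every control (57630 to 65370), and Mag and Cnp were among those that fell, neither passing with paired replicate numbers (adjusted p = 0.0726 and 0.0605). In whole nerves, more cells of a type and more RNA per cell cannot be told apart, and neither can fewer cells and less RNA per cell. Because FPKM is scaled to library size, a lower share of OL RNA also goes with higher shares of other genes. After centring of the samples the median was 0.40 for the identity genes and -0.03 for all genes. The part of this scaling in the identity genes was not tested.

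The level of each gene was therefore also expressed relative to the mean log2 level of the 16 identity genes in the same sample, a comparison chosen after seeing the data. Relative to this base, the median over all genes was -0.41 and 60.1% of all genes were called lower in mutants, since the base itself was higher. The 10 genes had a median of -0.16, and 7 were negative. Relative Gfap, at -0.05, 0.09, -0.06 and 0.02 in controls and -0.15, -0.03 and -0.10 in mutants, overlapped between groups, with a log2 difference of -0.09 (SE 0.116, adjusted p = 0.486). That of C4b was 0.01 (adjusted p = 0.954), and that of Osmr -0.10 (adjusted p = 0.546). Nes (-0.41, adjusted p = 0.0168), Vim (-0.38, 0.0383) and Cd44 (-0.36, 0.0383) were lower in all mutants than in all controls, as were 56.5% of all genes, and none of the 3 passed when the median of the identity genes was the base (0.0784, 0.0860 and 0.143). Nes passed with paired replicate numbers (0.0140), and Vim (0.0652) and Cd44 (0.0739) did not. For Vim the size rested on mutant 3, at -0.82, and was -0.16 without it.

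**Figure D4:**
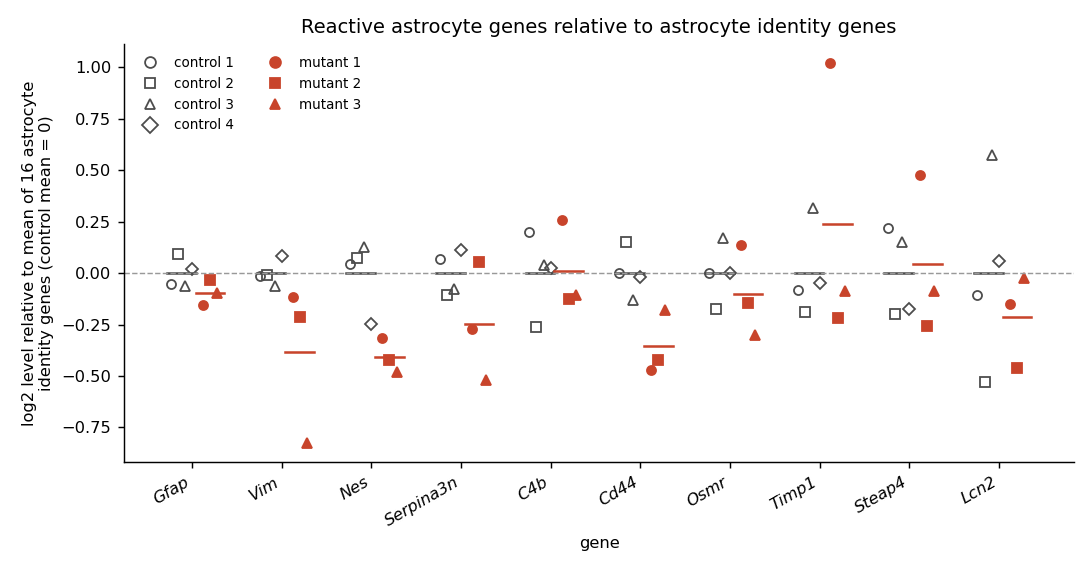
Level of each gene relative to the mean log2 level of 16 astrocyte identity genes in the same sample (y axis, log2, mean of the 4 controls set to 0), with controls as open grey and mutants as filled red symbols and a bar at each group mean. The groups overlap for Gfap, C4b and Osmr, and all mutants are below all controls for Vim, Nes and Cd44.

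The genes whose profile was closest to Gfap over the 7 samples, by the root mean square difference of centred log2(FPKM + 0.5) among 9451 genes with a mean of at least 5 FPKM, were B3galt1 (0.04), Bmpr1b (0.05) and Atp1b2 (0.05), where the median difference over all these genes was 0.24. Atp1b2 is one of the identity genes and stood at 477 to 563 FPKM in controls and 610 to 693 in mutants. Closest to Serpina3n were Tmod2 (0.06), Mast4 (0.07) and Slc25a45 (0.08), each highest in mutant 2.

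Of 14 further genes that reactive astrocytes raise in common, 12 had positive fold changes and the median was 0.27 (0.16 without mutant 1), with 0 called with limma-trend, 1 with edgeR and 2 with DESeq2. At an unadjusted p below 0.05 there were 6, and with paired replicate numbers Cp and Thbs1 passed. Cp, which encodes the copper-carrying ferroxidase ceruloplasmin, stood at 98.5, 62.8, 82.2 and 81.9 FPKM in controls and 134.7, 104.6 and 109.8 in mutants (log2 fold change 0.52, SE 0.145, adjusted p = 0.0848). Thbs1, which encodes thrombospondin 1, had the largest difference, 1.25 (SE 0.432, adjusted p = 0.131), and its value of 37.6 FPKM in mutant 1, against 3.79 to 14.2 elsewhere, came in the sample rich in meningeal genes. Cxcl10, a chemokine gene, had the most negative value, -0.48 (adjusted p = 0.312).

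Lists of genes named A1 and A2, after astrocytes reacting to inflammation and to ischemia, each held 1 gene called higher with limma-trend. The A1 list had a median of 0.32 over 12 genes and the A2 list 0.26 over 10. With edgeR 1 gene of each list was called, and with DESeq2 4 A1 and 3 A2 genes (12.4% of all genes). At an unadjusted p below 0.05 there were 4 A1 and 3 A2 genes. Sphk1 had the largest A2 difference, 0.68 (SE 0.187, limma-trend adjusted p = 0.084). Srgn, a proteoglycan gene that vessel and myeloid cells also express, rose from 41.3, 33.4, 36.1 and 35.7 FPKM to 65.7, 50.4 and 51.5 (log2 fold change 0.60, SE 0.107, adjusted p = 0.0327). Tm4sf1, a membrane protein gene that endothelial cells also express, rose from 18.7, 16.5, 19.0 and 16.2 FPKM to 32.7, 22.8 and 24.9 (0.58, SE 0.122, adjusted p = 0.0471). With paired replicate numbers 3 of the A1 genes passed, Srgn, Serping1 and Amigo2, and Tm4sf1 alone of the A2 genes. C3, used as a marker of the A1 state, stood at 7.54, 5.24, 4.72 and 10.3 FPKM in controls and 7.87, 11.1 and 6.73 in mutants, with overlap (adjusted p = 0.482). Without mutant 1 the A1 median was 0.20 and the A2 median 0.04. Of the cells that can drive these states, microglia were represented by 10 genes, of which 0 were called with limma-trend, edgeR or DESeq2 and 3 had an unadjusted p below 0.05, and Csf1r passed with paired replicate numbers (adjusted p = 0.0449). Their median was 0.15 (0.02 without mutant 3, 0.10 without control 3 and 0.26 without mutant 1), and their summed FPKM was 255 to 301 in controls and 277 to 336 in mutants.

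**Figure D5:**
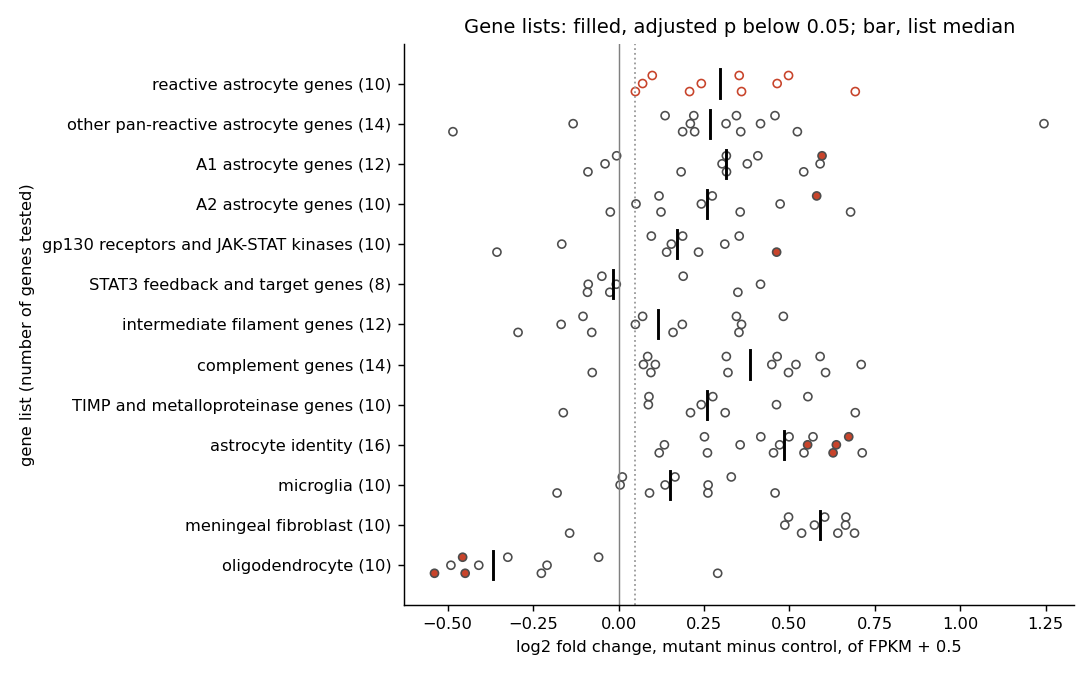
Log2 fold change, mutant minus control (x axis), of every gene tested in the 10 genes (red outlines, top) and 12 other lists, with filled symbols for an adjusted p below 0.05 and a black bar at each list median. The median is 0.30 for the 10 genes, 0.49 for astrocyte identity genes and -0.37 for OL genes, and the dotted line marks the median over all genes (0.05).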

How the data were processed

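RNA of P14 optic nerves was measured in 7 samples, assigned to genotype and number by their labels. The authors aligned reads with STAR 2.5.1b to GRCm38 and estimated gene levels with RSEM 1.2.22, per the labels' processing notes. They deposited a normalized count per gene and sample (a signal, the estimated count divided by a size factor whose method is not given in the sources used here) and an FPKM value derived from it. All 14 columns of single samples were used. The deposited log2 fold changes, p-values and FDR of their own comparison were not used.

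The test was limma-trend (limma 3.58.1, R 4.3.3) on log2(FPKM + 0.5), with genotype as the only term, over genes that reached 0.5 FPKM in 3 or more samples. A fold change on this scale understates that of low genes. Reads were recovered from the steps of the normalized counts for depth, edgeR 4.0.16 and DESeq2 1.42.0. Of low values (0.5 to 10.5 reads), 73.4% to 78.9% were whole within 0.02 reads, the rest being estimated fractions that were rounded, so both count tests are alternatives. Scripts were tested on simulated data. A plan for raw counts was set aside because the table held none.

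Same-numbered samples tended to deviate together, with correlations of 0.168, 0.270 and 0.409, although those of other pairs (-0.353 to 0.205) overlapped with these. A fit with the replicate number as a block was therefore run beside each test. What equal numbers share is not given in the sample titles. With 7 samples the block fit leaves few degrees of freedom to estimate the spread between mice. Control 4, without a partner, does not enter its fold changes. Same-numbered samples also shared presence or absence of Y-linked RNA, and the part of this in the block was not tested. Replicates differed by more than counting noise (median chi-square per gene 2.09 to 5.72). An exact permutation test of 4 against 3 samples cannot go below p = 0.0571, two-sided, and none is quoted. What made samples separate beyond the mouse is not stated, so p-values measure the spread between these mice. The 10 genes and all lists were chosen with earlier results of these data known. Genes to name were the 10, Fasn, called list genes, and the largest and most abundant of each list. Genes named for passing only with the block, or for standing apart in 1 sample, were named after their values were seen. Some genes are not reported here.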

Additional observations from a re-analysis of the deposited data

How the results depend on the processing

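The median of the 10 genes stayed positive under all alternatives, from 0.21 without control 2 to 0.36 without control 3. Control 2 was the lowest of all samples in Serpina3n, C4b, Osmr, Timp1, Steap4 and Lcn2. The number of them called was 0 except for 3 with DESeq2 and 1 with the replicate block, where pairing changed the call of C4b. Over all genes the number called was 363 (48.2% higher), and it was 95 with no filter on low values, 1682 with DESeq2, 1159 (76.8% higher) with the replicate block, 203 with a term for Y-linked RNA, chosen after seeing the data, and 6 to 909 when 1 sample was left out. It was 909 without mutant 2 and 6 without control 3 or mutant 3. The share called higher was 29.3% after centring on sample medians and 27.7% for normalized counts. Centring turned Vim to -0.012 and Nes to -0.033, and normalized counts to -0.0076 and -0.026. With 1 sample left out Vim ran from -0.022 to 0.23 and Cd44 from -0.050 to 0.22. Of 170 single-gene fold changes under all alternatives, 160 kept their direction and side of the threshold, 6 reversed and 4 passed the threshold (C4b with DESeq2 and the block, Gfap and Timp1 with DESeq2). Relative to astrocyte identity genes, a comparison also chosen after seeing the data, Steap4 was -0.015 with the replicate block, and with 1 sample left out C4b ran from -0.11 to 0.076, Timp1 from -0.15 to 0.47 and Steap4 from -0.17 to 0.19. The cause was not tested for any of these. The planned sum of C4a and C4b was not run, because C4a was not found by name among the genes of the table. Depth limits Steap4, with 51 to 159 reads.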
